A study of Mus musculus with 12 samples.

Results

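The genes described are 7 cell adhesion molecules of the early heart, Vcam1, Itga4, Ncam1, Cadm1, Alcam, Cdh2 and Cdh11, out of 19057 genes with a probe on the array. They were picked by name, and the 21 probes that carry 1 of these symbols were found among 45281 probes through the platform's gene annotation. Each gene was represented by the brightest of its probes, judged by the average of the 12 arrays. That average picks the probe only and was not tested. Total RNA came from the atrioventricular canal (AVC), the segment where the endocardial cushions of the valves form, and from the primary ventricle (LV in the labels) of mouse embryos at embryonic day 10 (E10) and embryonic day 9 (E9). The 4 groups, AVC E10, AVC E9, LV E10 and LV E9, had 3 arrays each, and the sources used here do not give strain or genotype. Nor do they say whether replicates came from separate litters or pools, so a p-value reflects only how far these samples spread, which may be technical. The tissue comparison at each age asks what sets the valve-forming region apart from the adjacent chamber, and the age comparison asks what differs in each tissue between these days.

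Cell adhesion molecules hold embryonic cells to each other and to the matrix, and their loss or exchange lets cells leave an epithelium. Cadherins bind the same cadherin on the next cell and are tied to actin through catenins, whereas VCAM1 is a ligand of α4 integrins, and NCAM1, CADM1 and ALCAM are immunoglobulin-type proteins that bind their own kind or related partners. In the mouse heart VCAM1 and α4 integrin are needed for the epicardium to form, N-cadherin (Cdh2) joins cardiomyocytes, cadherin-11 (Cdh11) is found on cushion mesenchyme and valve cells, and ALCAM marks young cardiomyocytes.

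The array values were intensities on a linear scale, with a mean of 386 on every array. The size of the most negative value, 22.4 to 29.6, served as the background limit of an array, and a gene counted as above background wherever its value exceeded that limit. Differences are in log2 intensity after values under 1 were set to 1, with the standard error (SE) and the p-value of limma's moderated test adjusted by Benjamini-Hochberg over all 19057 genes, and genes with an adjusted p under 0.05 are referred to as called. Replicate 1 of LV E10 correlated best with an LV E9 array (r = 0.969 across genes, against a mean of 0.933 with its own group), and AVC E10 replicate 1 correlated best with AVC E9 replicate 2, which likewise was closest to it (r = 0.979). All 7 measured cardiomyocyte markers were above background on every array. In dissected tissue, fewer cells of a type and less RNA per cell cannot be told apart.

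The 7 genes are described in 3 sets. Ncam1 was higher in the AVC than in the LV at E10. Vcam1, Cadm1 and Alcam read lower on each E10 array than on each E9 array of the same tissue, and Cdh11, Cdh2 and Itga4 lay near the background limit. The fall was called for Vcam1 and Cadm1 in the LV only. Ncam1, Cdh11 and Cdh2 read higher on each E10 array than on each E9 array of the same tissue. Over all genes the ages did not overlap, in either direction, for 16.2% in the AVC and 20.4% in the LV. After adjustment, 1 of the 7 genes, Ncam1, was higher in the AVC than in the LV at E10, where 2.3% of all genes were called in either direction and 2.06% higher in the AVC. At E9 limma called 0 of 7 between the tissues, against 1.02% of all genes. For E10 against E9 limma called 0 of 7 in the AVC, against 0.551% of all genes. In the LV 2 of 7, Vcam1 and Cadm1, were called lower, where 2.37% of all genes were called in either direction and 1% lower. At an unadjusted p under 0.05 stood 2 of 7 between the tissues at each age and 5 of 7 between the ages in each tissue. The shares of all genes given here are after adjustment and are no comparison for these counts. Over all genes by limma's p-value, Alcam ranked 1498 in the AVC (unadjusted p = 0.0218) and Cdh11 3645 in the LV (unadjusted p = 0.0478). Many more genes than those called thus passed the unadjusted threshold. The median log2 difference over the 7 genes was 0.21 between the tissues at E10, 0.08 at E9, 0.46 between the ages in the AVC and 0.21 in the LV, beside 0.07 at E10 and 0 in the other comparisons over all genes. In both age comparisons the gene in the middle was Itga4, which was near background, and the median over the members above background was 0.01, -0.20, -0.96 and -1.30 in the same order. The 4 comparisons share groups of arrays, so that they are not independent of each other.

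**Figure D1:**
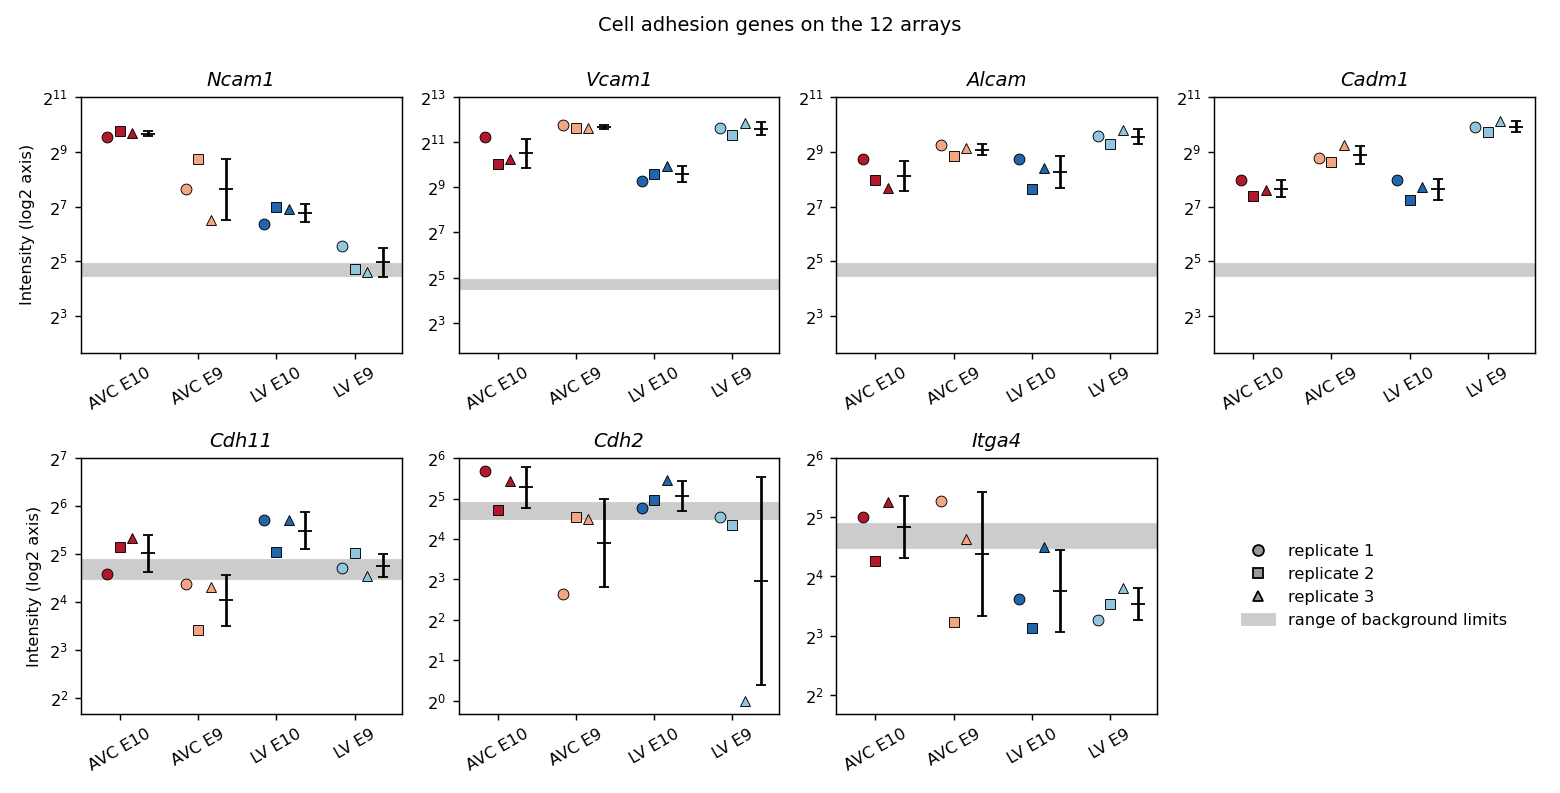
Intensity of the 7 adhesion genes on each of the 12 arrays, on a log2 axis that differs between panels, with groups along the x axis, 1 symbol per replicate, and the mean and SD of log2 intensity beside the points (n = 3 arrays). The grey band is the range of the 12 background limits, 22.4 to 29.6, and the LV E9 value of Cdh2 below 0 is drawn at 1. Ncam1 was highest on the 3 AVC E10 arrays, the points of Vcam1, Alcam and Cadm1 lay lower for E10 than for E9 of the same tissue, and Cdh11, Cdh2 and Itga4 lay around the band.

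Ncam1 encodes the neural cell adhesion molecule, which is known from neurons and muscle. Its intensity was 752, 868 and 816 on the AVC E10 arrays and 200, 430 and 91.1 on the AVC E9 arrays, against 82.9, 126 and 120 on the LV E10 arrays and 47.8, 26.4 and 24.5 on the LV E9 arrays. The AVC E10 arrays stood together above all others, the AVC E9 arrays were spread widely and overlapped with LV E10, and only 1 of 3 LV E9 arrays was above background. At E10 Ncam1 was 7.53-fold higher in the AVC than in the LV (812 ± 58.2 against 109 ± 23.2, SD, n = 3; log2 difference 2.91 ± 0.51 SE, limma adjusted p = 0.0291). The call at E10 did not stand after quantile normalization (2.75, adjusted p = 0.0676) or with both E10 replicates 1 left out (2.78, adjusted p = 0.0957). It was lost in 7 of the 12 fits that left out 1 array (adjusted p up to 0.112).

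The other Ncam1 comparisons did not pass the threshold, and those with LV E9 are given without a fold because that group had 1 of 3 arrays above background. At E9 the AVC averaged 240 ± 173 and the LV 32.9 ± 13.0 (limma adjusted p = 0.0572), and the call was made without AVC E9 replicate 3, the lowest of its group (adjusted p = 0.0224). E10 against E9 gave a log2 difference of 2.03 ± 0.51 in the AVC (adjusted p = 0.131) and an adjusted p of 0.107 in the LV. All 3 comparisons passed when only genes above background were tested (adjusted p = 0.0124 at E9, 0.0467 in the AVC and 0.0404 in the LV) and with array weights (0.0259, 0.0125 and 0.0181). The difference between the ages in the tissue difference was not called (adjusted p = 1). In all 4 comparisons the arrays of the groups did not overlap for Ncam1, which held for 15.8% of all genes between the tissues at E10, 17.1% at E9, 16.2% between the ages in the AVC and 20.4% in the LV.

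Of the 3 other Ncam1 probes, the brightest read 46.2, 47.0 and 44.7 in AVC E10 and 27.9, 25.7 and 27.7 in AVC E9, against 20.0, 25.3 and 17.9 in LV E10 and 17.6, 17.1 and 16.9 in LV E9. This probe was above background on every AVC array and on 1 LV array, and its arrays too did not overlap between the tissues at either age. With it in place of the chosen probe, limma called the tissues at E10 (log2 difference 1.14, adjusted p = 0.00308) and at E9 (0.65, adjusted p = 0.0337). The ages in the AVC were called too (0.76, adjusted p = 0.0311). These differences were smaller than with the chosen probe (2.91 at E10), and their size is uncertain with the LV near background. The remaining Ncam1 probes were above background on 3 arrays and on 1 array.

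Marker sums of cushion mesenchyme, which forms within the AVC, were also higher in the AVC. So were those of atrium and sinus venosus and of neural tissue, except that the neural sums overlapped between the tissues at E9. Summed over the list, 8 cushion mesenchyme markers reached 7432 to 8447 in AVC E10 and 4363 to 6266 in AVC E9, against 1252 to 2335 in LV E10 and 1508 to 1849 in LV E9. The 6 atrium and sinus venosus markers, of which Hcn4 was above background on no array, summed to 418 to 1479 in AVC E10 and 501 to 772 in AVC E9, against 43.3 to 127 in LV E10 and 58.4 to 95.6 in LV E9. The 7 neural and neural crest markers summed to 110 to 131 in AVC E10 and 70.0 to 133 in AVC E9, against 46.4 to 76.8 in LV E10 and 64.4 to 79.8 in LV E9. Of these markers Elavl3, Sox2 and Foxd3 were above background on no array. Called higher in the AVC at E10 were 3 of the 8 cushion, 1 of the 6 atrial and 1 of the 7 neural markers, against 2.06% of all genes. At E9 these counts were 3, 2 and 0, where 1.02% of all genes were called in either direction. None of these markers was called lower. The part of these cell types and tissues in the Ncam1 difference was not tested.

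Among the 6 listed partners and modifiers of NCAM1, CADM1 and ALCAM, 1 was called between the tissues, at both ages. Over all genes 2.3% were called at E10 and 1.02% at E9. The called gene was St8sia2, the polysialyltransferase that adds polysialic acid chains to NCAM1. St8sia2 averaged 79.7 ± 26.2 in AVC E10 and 39.7 ± 7.30 in AVC E9, and it was not above background on any LV array, which put the AVC at least 3.05-fold higher than the LV at E10 (limma adjusted p = 0.0412) and at least 1.46-fold higher at E9 (adjusted p = 0.0385). Such a bound sets the mean of the brighter group against the higher, on each array, of the lowest signal above background and the gene's own value. A p-value beside such a bound belongs to the log2 difference (here 3.56 at E10 and 4.02 at E9), not to the bound. Leaving out single arrays ended both St8sia2 calls in 9 of 12 fits (adjusted p up to 0.149 at E10 and up to 0.131 at E9). The E9 call was also lost with a floor of 16 (adjusted p = 0.0558). The E10 call was lost after quantile normalization (adjusted p = 0.0691) and 75th percentile scaling (adjusted p = 0.0684).

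Vcam1 encodes vascular cell adhesion molecule 1, the cell-bound ligand of α4 integrins. Its intensity was 2398, 1037 and 1213 in AVC E10 and 3483, 3174 and 3160 in AVC E9. In the LV it was 616, 757 and 984 at E10, against 3133, 2509 and 3728 at E9. Both E9 groups were high and overlapped with each other, and every E10 array was below every E9 array.

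In the LV Vcam1 averaged 785 ± 186 at E10 and 3123 ± 609 at E9 and fell by 2.0 ± 0.31 on the log2 scale (limma adjusted p = 0.0260). In the AVC the averages were 1550 ± 740 at E10 and 3272 ± 183 at E9, a log2 difference of -1.18 that was not called (adjusted p = 0.152). Without AVC E10 replicate 1, whose 2398 was the highest of its group, the AVC difference was -1.54 (adjusted p = 0.0163). At E10 the AVC arrays were all above the LV arrays, by 0.91 on the log2 scale (95% interval 0.19 to 1.62, adjusted p = 0.214), whereas at E9 the difference was 0.08 (95% interval -0.63 to 0.80, adjusted p = 1). The difference between the 2 tissues in their change with age was 0.82 (95% interval -0.19 to 1.83, adjusted p = 0.937). The LV call was lost without LV E10 replicate 2 or any 1 of the LV E9 arrays (adjusted p up to 0.0988) and when only the LV arrays were fitted (adjusted p = 0.0691). Of the 3 other Vcam1 probes, the brightest averaged 18.5 ± 17.5 in LV E10 and 66.9 ± 38.9 in LV E9 (adjusted p = 0.253 with this probe in place of the chosen one), with 1 of 3 LV E10 arrays above background, and the next was above background on no E10 array and on 5 of 6 E9 arrays.

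Itga4, the α4 integrin subunit that binds VCAM1, gave little signal. It read 32.1, 19.1 and 38.4 in AVC E10 and 38.7, 9.37 and 24.9 in AVC E9, against 12.2, 8.77 and 22.6 in LV E10 and 9.64, 11.6 and 14.1 in LV E9. The gene was above background on 2 of 3 arrays in each AVC group and on none in the LV, and its 5 other probes were above background on no array, so no fold is given and a difference was not detectable at this signal.

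Cadm1 encodes a nectin-like molecule that binds itself and related proteins on neighbouring cells. Its intensity was 253, 166 and 193 in AVC E10 and 440, 395 and 612 in AVC E9, against 252, 150 and 209 in LV E10 and 968, 836 and 1119 in LV E9. LV E9 was above AVC E9 with no overlap, and both were above the E10 groups, which overlapped with each other. In the LV Cadm1 averaged 204 ± 51.3 at E10 and 974 ± 141 at E9 and fell by 2.28 ± 0.25 on the log2 scale (limma adjusted p = 0.00801). This call stood in each of the 12 fits that left out 1 array (-2.45 to -2.08, adjusted p 0.00346 to 0.0302), but was not made when only the LV arrays were fitted (adjusted p = 0.0603). The AVC averaged 204 ± 44.5 at E10 and 482 ± 115 at E9, a log2 difference of -1.24 that missed the threshold (adjusted p = 0.0742) and passed it without AVC E10 replicate 1 (-1.41, adjusted p = 0.0412).

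Between the tissues Cadm1 differed by 0.01 on the log2 scale at E10 (95% interval -0.56 to 0.58, adjusted p = 1) and by -1.03 at E9 (adjusted p = 0.115). The sign of the E10 value turned under quantile normalization (-0.23) and scaling to the 75th percentile (-0.25). The LV difference between the ages was larger than that in the AVC by 1.04 on the log2 scale (95% interval 0.24 to 1.84), with an unadjusted p of 0.0172 and a limma adjusted p of 0.870, when 0.0315% of all genes were called for this difference.

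Alcam encodes activated leukocyte cell adhesion molecule. It read 424, 249 and 204 in AVC E10 and 607, 458 and 567 in AVC E9, against 427, 197 and 340 in LV E10 and 760, 625 and 893 in LV E9. Every E10 array was below every E9 array in both tissues, and replicate 1 was the highest of each E10 group. The LV averaged 321 ± 116 at E10 and 759 ± 134 at E9, a log2 difference of -1.30 (limma adjusted p = 0.0865), and the AVC 292 ± 117 at E10 and 544 ± 77.0 at E9, a log2 difference of -0.96 (adjusted p = 0.277). Neither was called, and the LV difference passed without LV E10 replicate 1 (-1.54, adjusted p = 0.0308). Between the tissues Alcam differed by -0.14 at E10 (95% interval -0.92 to 0.64) and by -0.48 at E9 (95% interval -1.25 to 0.30), with adjusted p-values of 1 and 0.692.

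The start of Alcam is shown because it was 1 of the 3 genes that were lower on every E10 array. It was the only 1 of these among the promoter windows searched here, which covered 2 of the 7 genes. The 250 bases before the annotated start lie on the minus strand at chr16:52453082-52453331 of GRCm38.p6 (RefSeq), with capitals for the GC box (GGGCGG) and the CCAAT box (CCAAT), each on either strand.
Alcam: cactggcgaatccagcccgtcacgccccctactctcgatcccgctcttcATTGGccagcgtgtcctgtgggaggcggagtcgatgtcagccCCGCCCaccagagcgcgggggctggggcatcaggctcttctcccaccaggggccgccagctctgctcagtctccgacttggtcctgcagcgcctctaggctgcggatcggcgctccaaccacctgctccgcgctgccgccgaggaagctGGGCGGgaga
This window held 2 GC boxes, 1 CCAAT box and 0 TATA boxes (TATAAA), and 69.2% of its bases were G or C. Of the 32851 promoter windows searched, 32.7% held a GC box, 33.8% a CCAAT box and 12.4% a TATA box. A match is a description of the letters and does not show that a factor binds there.

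Marker sums of cardiomyocytes were lower at E10 in the LV, and those of the epicardium and endothelium were higher at E10 in both tissues. In the LV 0 of the 7 cardiomyocyte markers were called between the ages, where 2.37% of all genes were called. Their median log2 difference there was -0.18, beside -0.10 over all genes above background in a group. In the LV the 7 cardiomyocyte markers summed to 55032 to 57373 at E10 and 63070 to 66106 at E9, and in the AVC to 52292 to 59834 at E10 and 59581 to 63978 at E9. The 7 epicardium and proepicardium markers, with Msln above background on no array, summed to 3078 to 6940 in LV E10 and 553 to 1207 in LV E9, and to 5203 to 5606 in AVC E10 and 776 to 1156 in AVC E9. The 8 endocardium and endothelium markers, with Kdr above background on no array, summed to 5148 to 6728 in LV E10 and 3346 to 3817 in LV E9, and to 4873 to 6278 in AVC E10 and 2676 to 3870 in AVC E9. Their mean log2 intensity overlapped between the ages in the AVC (7.94 on AVC E10 replicate 1, 7.96 and 8.06 on AVC E9 replicates 1 and 2). Of these 8 endothelial markers, 0 were called between the ages in the AVC and 1, Pecam1, was called higher in the LV. Of the 7 epicardial markers, 1 was called higher at E10 in the AVC and 2 in the LV. Over all genes 0.551% were called in the AVC and 2.37% in the LV. In LV E10 replicate 1 the 6 endoderm and hepatic markers summed to 2463, the highest of the 12 arrays, while Alb, Foxa2 and Epcam were above background on none. The part of these cell types in the differences of Vcam1, Cadm1 and Alcam was not tested.

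**Figure D2:**
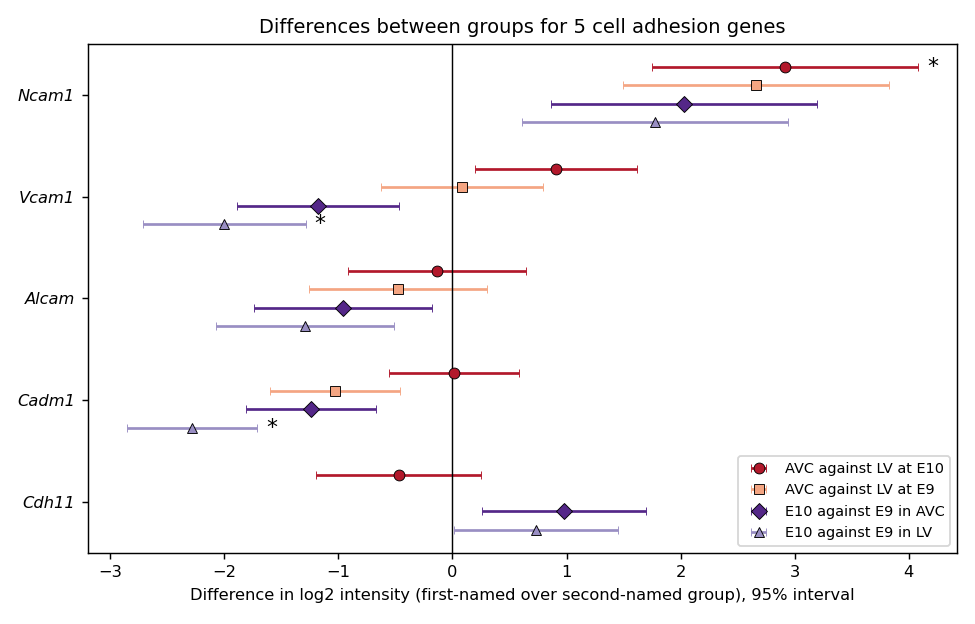
Differences in log2 intensity (x axis) for the 5 genes that exceeded the background limit on all 3 arrays of some group, with 1 row of symbols per gene and 95% intervals from limma; an asterisk marks an adjusted p under 0.05. The value for Cdh11 between the tissues at E9 is left out because neither group was above background on all arrays, and the values against Ncam1 in LV E9 (1 of 3 arrays above background) and Cdh11 in AVC E9 (none above) are uncertain in size. Called were Ncam1 between the tissues at E10 (2.91) and Vcam1 (-2.0) and Cadm1 (-2.28) for E10 against E9 in the LV.

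Cdh11, the cadherin of mesenchymal cells, read 24.0, 35.5 and 40.2 in AVC E10 and 20.9, 10.8 and 20.0 in AVC E9, against 52.7, 33.2 and 52.1 in LV E10 and 26.4, 32.4 and 23.3 in LV E9. All 6 E10 arrays were above background, as were 2 arrays of LV E9 and none of AVC E9. At E10 the AVC averaged 33.2 ± 8.31 and the LV 46.0 ± 11.1, which differed by -0.47 on the log2 scale (95% interval -1.19 to 0.25, limma adjusted p = 0.594). E10 against E9 was not called in the LV (0.73, adjusted p = 0.250) or in the AVC (adjusted p = 0.234). The next probe of Cdh11 was above background on all LV E10 arrays, on 2 AVC E10 arrays, on 1 AVC E9 array and on no LV E9 array. The cushion mesenchyme marker sums of AVC E10 were above those of LV E10 without overlap, whereas the Cdh11 values of these groups overlapped.

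Cdh2, which encodes N-cadherin, read 51.4, 26.2 and 43.2 in AVC E10 and 6.27, 23.5 and 22.5 in AVC E9, against 27.1, 31.4 and 44.4 in LV E10 and 23.4, 20.2 and -5.20 in LV E9. Each group had at least 1 array at or below its background limit, so no fold is given. Above background were 2 arrays in each E10 group, 1 in AVC E9 and none in LV E9. A second probe was above background on 3 of the 12 arrays. Whether the Cdh2 probes respond weakly was not tested, so the low signal is not a measure of how much Cdh2 the tissue holds.

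**Figure D3:**
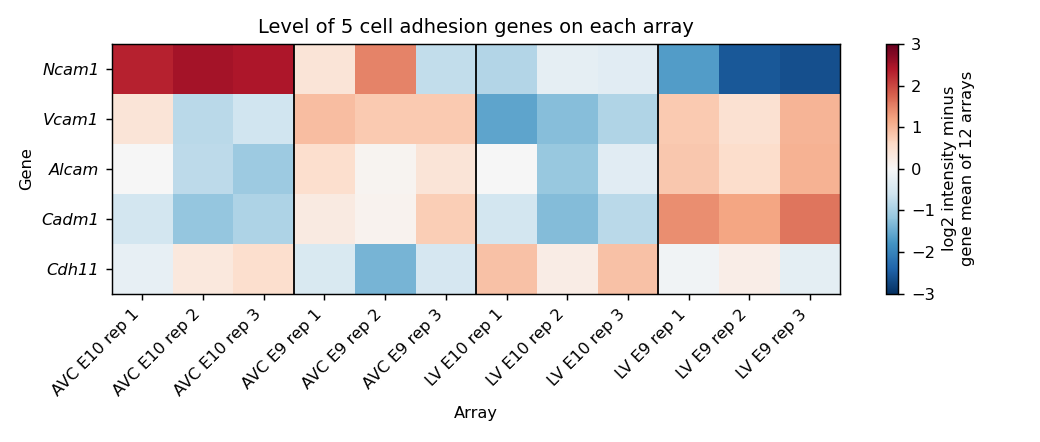
Log2 intensity of the 5 brighter adhesion genes on each array minus the gene's mean over the 12 arrays, as colour (red above, blue below the mean), with genes in rows and arrays in columns grouped as AVC E10, AVC E9, LV E10 and LV E9. Ncam1 is above its mean on the 3 AVC E10 arrays and below it on the LV arrays, and Vcam1, Alcam and Cadm1 are above their means on the 6 E9 arrays and lower on each E10 array of the same tissue.

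Other adhesion genes were taken from 4 lists with 62 genes, 60 of them measured. Of 20 integrins and α4 integrin ligands, 1 was higher in the AVC at each age and 0 were called in either age comparison. Over all 19057 genes, 392 (2.06%) were called higher in the AVC at E10 and 163 at E9. The median log2 difference of this list between the tissues was 0.51 at E10 and 0.24 at E9, beside 0.07 and 0 over all genes. It was 0.39 and 0.08 for the cadherins and catenins, 0.41 and 0.23 for the immunoglobulin-type molecules, and 0.67 and 0.24 for the partners and modifiers. These medians include genes at background. Over all genes above background in a group the median was 0.18 at E10 and 0.08 at E9. For listed genes above background in a compared group it was 0.55 and 0.33 for the integrins and ligands. It was 0.30 and 0.08 for the cadherins and catenins, and 0.16 and 0.27 for the immunoglobulin-type molecules. Of the partners and modifiers only 2 genes at E10 and 1 at E9 were above background. Of 16 cadherins and catenins 0 were called between the tissues at either age, and 1 was higher at E10 in the LV. Of 18 immunoglobulin-type molecules 1 was higher in the AVC at each age and 1 was higher at E10 in the LV. Over all 19057 genes 261 were called higher at E10 in the LV. None of the 60 genes was called for the ages in the AVC or lower in any comparison.

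Itgb5, the β5 partner of αv integrin in a vitronectin receptor, averaged 1795 ± 405 in AVC E10 and 1081 ± 136 in AVC E9, against 651 ± 118 in LV E10 and 375 ± 64.3 in LV E9. It was 2.74-fold higher in the AVC at E10 (log2 difference 1.46 ± 0.20, limma adjusted p = 0.0140) and 2.90-fold at E9 (1.54 ± 0.20, adjusted p = 0.0176). Neither call was made when only the arrays of the comparison were fitted (adjusted p = 0.120 and 0.0705). Leaving out LV E10 replicate 2 ended the E10 call (adjusted p = 0.0527), and leaving out AVC E9 replicate 1, LV E9 replicate 2 or LV E9 replicate 3 ended the E9 call (adjusted p up to 0.0655).

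Jam2, a junctional adhesion molecule of endothelial and other cells, averaged 111 ± 40.0 in AVC E10 and was not above background in the LV, which at E10 put the AVC at least 4.22-fold above the LV (limma adjusted p = 0.0140). This call was lost without AVC E10 replicate 2, AVC E10 replicate 3 or LV E10 replicate 2 (adjusted p up to 0.0631). At E9 Jam2 was called (adjusted p = 0.0301), but only 1 of 3 AVC E9 arrays was above background (28.6 ± 19.4), so no fold is given. In the LV Pecam1, the endothelial adhesion molecule PECAM-1, was 2.34-fold higher at E10 than at E9 (459 ± 25.2 against 197 ± 17.8, limma adjusted p = 0.0437). Pecam1 is itself 1 of the endothelial markers in the sums given above, so those sums are not a separate observation. The Pecam1 call was lost in 9 of 12 fits that left out 1 array (adjusted p up to 0.159). Ctnna3, αT-catenin of cardiomyocyte junctions, averaged 41.7 ± 17.4 in LV E10 and 6.39 ± 2.95 in LV E9 and was called (adjusted p = 0.0260), with 2 of 3 LV E10 arrays and no LV E9 array above background.

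**Figure D4:**
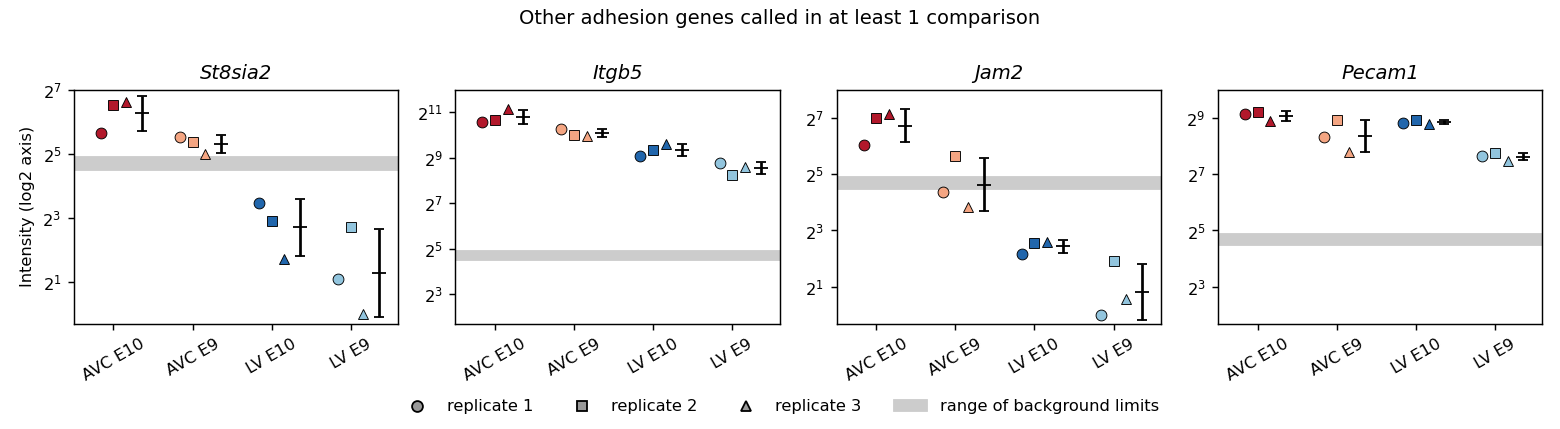
Intensity of 4 further adhesion genes on each of the 12 arrays, on a log2 axis that differs between panels, with the groups along the x axis, 1 symbol per replicate, the mean and SD of log2 intensity (n = 3 arrays) and the range of background limits as a grey band. St8sia2 and Jam2 lie below the band on the LV arrays, Itgb5 is higher on the AVC arrays of each age, and Pecam1 is higher on the LV E10 arrays than on the LV E9 arrays.

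The genes whose log2 intensity followed each member most closely were sought among the 8337 other genes above background on all 12 arrays, by Pearson's r, which is a description over 12 arrays in 4 groups. Closest to Ncam1 was Igfbp7, which encodes a secreted insulin-like growth factor binding protein (r = 0.988), followed by Rnf130 (0.981) and Ppp3ca (0.976). Vcam1 was followed most closely by Sec61a2 (0.984), Aph1a (0.981) and Fastkd5 (0.971). For Cadm1 these were Terf2ip (0.973), Mrps26 (0.968) and Rrp9 (0.966), and for Alcam Ccdc86 (0.964), Enkd1 (0.956) and Alg8 (0.949). Cdh11 had Galnt2 (0.936), Blvra (0.927) and Cbx6 (0.911). Itga4 had Sox12 (0.944), Ambra1 (0.935) and Rchy1 (0.905), and Cdh2 had Sec23a (0.812), Gdi2 (0.809) and Gulp1 (0.803), both members having most of their values at or below the background limit.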

How the data were processed

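Total RNA of the dissected tissues was labelled with biotin and hybridised to Illumina Mouse WG-6 v2 BeadChips. The intensity values deposited by the authors were on a linear scale with a mean of 386 on each of 12 arrays, and 34.7% of them were below 0, which shows a subtracted background and scaling to a common mean. The sources used here name neither the program that wrote them nor the chip of each sample, and the methods name GeneSpring GX for the study's own lists. Of the probes, 34885 had 1 gene symbol, 18 had several and 10378 none, and 34807 were matched by Entrez identifier with 0 symbols updated. Values under 1 (36.8%) were set to 1 before log2.

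Linear models (limma 3.58.1, R 4.3.3, data.table version 1.17.8) were fitted over all probes and all 4 groups, without a replicate block, and two-sided p-values were adjusted over 19057 genes. Median intensities ran from 7.72 to 11.1 and 75th percentiles from 93.6 to 124, and the number of arrays limits the precision. The fit was tested on simulated data. Named were the 7 genes, listed adhesion genes called in at least 1 comparison, and the 3 genes with the highest correlation to each member. The members, lists and tests were chosen with earlier results of these data known, so the adjusted p-values are not independent of that choice. Alternatives changed the floor, scaling, filter, weights, block, arrays and probes. No values per sample were left unused (0 columns). Figures were drawn with matplotlib 3.10.9 in Python 3.11.15.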

Additional observations from a re-analysis of the deposited data

How the results depend on the processing

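The precision rests on 3 arrays a group and one deposited scaling, and genes near the background limit have no reliable fold. Another scaling moved the balance of calls. At E10 89.5% of calls between the tissues were higher in the AVC, against 69.4% after quantile normalization and 52.3% after 75th percentile scaling, and the median of the 9931 genes above background in a group was 0.18, 0.02 and -0.07. At E9 the share was 83.6%, 65.1% and 47.3%, for the ages in the AVC 78.1%, 69.8% and 48.5%, and in the LV 57.7%, 52.5% and 38.1%. The differences of Ncam1, Vcam1 and Cadm1 that were called kept their direction under all alternatives run.

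The calls over all genes numbered 438 between the tissues at E10, 195 at E9, 105 between the ages in the AVC, 452 in the LV and 6 for the difference between these differences. A floor of 16 gave 182 for the ages in the AVC. Quantile normalization gave 268 at E10, with 0 of the 7 genes, and 63 in the AVC. Scaling to the 75th percentile gave 283 at E10 with 0 of the 7 genes, 1 of the 7 at E9 and 1 in the AVC (Cadm1 in both), and 713 in the LV. The sign turned for Cadm1 at E10 (-0.23 after quantile normalization, -0.25 after 75th percentile scaling) and for Vcam1 at E9 (-0.062 after 75th percentile scaling). With only the genes above background, fewer were tested, and the counts were 347 at E9 (2 of the 7), 289 in the AVC (2), 978 in the LV (4) and 2 for the difference of differences. Array weights gave 2143 at E10, 636 at E9 (2 of the 7), 2050 in the AVC (4), 3997 in the LV (4) and 16. Fitting only the arrays of a comparison gave 72 at E10, 83 at E9, 21 in the AVC and 75 in the LV (0 of the 7). With both E10 replicates 1 left out, chosen after seeing the data, the counts were 690 at E10 (0 of the 7), 441 at E9, 999 in the AVC (2), 2676 in the LV and 118. The second probe of Cdh11 turned its difference of differences (-0.69). The cause of these changes was not tested.

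Leaving out single arrays gave 97 to 730 calls at E10 with 0 to 1 of the 7 genes, 59 to 422 at E9 with 0 to 1, 25 to 465 in the AVC with 0 to 2, 54 to 2630 in the LV with 1 to 3, and 10 to 43 for the difference of differences with 0. The 730 and 2630 came without LV E10 replicate 1. Signs turned for Cadm1 (-0.19 to 0.18) and Alcam (-0.45 to 0.10) at E10, Vcam1 at E9 (-0.064 to 0.22), and the difference of differences of Ncam1 (-0.31 to 0.81) and Cdh11 (-0.061 to 0.46). The Ncam1 call at E10 was lost in 7 of the 12 fits, those without any 1 of the AVC E10 or LV E10 arrays or without AVC E9 replicate 1 (2.72 to 3.03, adjusted p 0.0515 to 0.112).

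The labels do not say that replicate numbers mark a shared litter or batch, and 9 of 18 same-numbered pairs deviated together with r over 0.1 (-0.365 to 0.524), so the samples were not treated as paired. As a hint of pairing from the data, 8 of 12 arrays correlated best with their own number, and the median r of differently numbered pairs was -0.0788. With the replicate number as a block, 66 genes were called for the ages in the AVC, 794 in the LV and 3 for the difference of differences, Alcam passed in the LV (-1.30, adjusted p = 0.0490), and St8sia2 at E9 did not (adjusted p = 0.0585).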
